A study of Mus musculus with 16 samples.

Results

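Lct and Sis encode the lactose- and sucrose-splitting enzymes of the small-intestinal brush border. Their loci were examined in maps of H3K27ac, a histone acetylation found at active enhancers and promoters. The members were the deposited peaks that overlapped a window on mm9 around each gene. The Lct window of 85 kb ran on chromosome 1 from 130160001 to the base before 130245001, and the Sis window of 130 kb on chromosome 3 from 72670001 to the base before 72800001. These held 34 of the 369142 peaks in the 8 peak lists, 16 at Lct and 18 at Sis.

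The libraries came from sorted small-intestinal epithelium of mice of a mixed C57BL/6 CD1 strain, with 2 chromatin immunoprecipitation and sequencing (ChIP-seq) libraries in each of 4 groups. Enterocytes were the EpCAM+CD31−CD45−DAPI− cells of adult males (postnatal day 60) that carried the Lgr5EGFP-Cre-ERT allele. Lgr5-positive intestinal stem cells (ISC) were the cells with high EGFP from males of the same age and allele. The E14.5 and E12.5 groups were EpCAM+CD31−CD45−DAPI− cells from the small intestine of embryos of those days, for which the labels give neither a transgene nor the sex. Per the labels, 250000 cells were sorted for ChIP. The gate for enterocytes selects epithelium and has no positive enterocyte marker. The series calls the libraries of a group biological duplicates, but does not say whether each came from 1 animal or from a pool.

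Each ChIP library held 34.6 to 54.6 M tags and was called against its own input of 35.0 to 38.8 M tags. The enterocyte lists had the fewest peaks (36439 and 35614, against 44594 to 52510 in the other 6) and the shortest total peak length (38.8 Mb each, against 43.6 to 76.1 Mb). Marker loci of other cell types were not located, because the gene table used here is on another build than the peaks, so the purity of the sorts was not tested at them.

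Lactase-phlorizin hydrolase, the product of Lct, splits the milk sugar lactose and is made by suckling mammals, with a decline after weaning in most species. Sucrase-isomaltase, the product of Sis, splits sucrose and the branched products of starch digestion, and in rodents it appears around weaning. Both are anchored in the apical membrane of enterocytes and serve as markers of absorptive differentiation. CDX2 and GATA4, transcription factors of the intestinal epithelium, are known to act on both promoters.

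The 250 bases before the annotated start of each gene are shown because peaks covered more of both windows in enterocytes than in the other groups. Whether any peak lies at these bases was not tested. They are from RefSeq on GRCm38.p6, both on the minus strand, 5′ to 3′, with Lct on chromosome 1 and Sis on chromosome 3. Capitals mark GATAA (a form of the core bound by GATA factors) and TTTAT and TTTAC (cores bound by CDX factors). All were searched on both strands.
Lct promoter: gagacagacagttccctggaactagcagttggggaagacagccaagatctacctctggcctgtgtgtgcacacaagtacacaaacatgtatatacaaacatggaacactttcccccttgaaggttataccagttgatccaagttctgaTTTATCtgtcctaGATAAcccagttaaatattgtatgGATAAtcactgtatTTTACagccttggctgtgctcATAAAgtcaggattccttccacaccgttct
Sis promoter: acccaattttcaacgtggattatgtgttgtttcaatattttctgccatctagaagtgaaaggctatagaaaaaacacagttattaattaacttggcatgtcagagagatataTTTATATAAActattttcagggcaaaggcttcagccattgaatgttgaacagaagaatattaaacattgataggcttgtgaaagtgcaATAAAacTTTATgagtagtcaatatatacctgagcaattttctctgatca

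The Lct stretch held 3 matches to GATAA, 2 to TTTAT and 1 to TTTAC. One GATAA match, on the minus strand 101 to 97 bases before the start, overlaps a TTTAT match at 102 to 98 bases. The Sis stretch held 4 matches to TTTAT and none to GATAA or TTTAC. Other forms of these cores were not searched, so a stretch without a match may still hold a site. Of 32851 promoter stretches of the same length in the table, 22.6% held GATAA, 37.3% TTTAT and 28.3% TTTAC. Both stretches were poor in G and C, at 42.8% for Lct and 31.6% for Sis, against a median of 52.4%. Each had 1 CpG, against a median of 6 over all stretches, and 18.8% of stretches had as few. Because the peaks are on mm9 and these sequences are on GRCm38.p6, no peak was assigned to a promoter by position.

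At Lct, long acetylated stretches were found in the enterocyte libraries. Peaks covered 10410 and 8806 bp of the window in the enterocyte libraries, against 0 and 240 bp in ISC, 350 and 0 bp at E14.5 and 0 and 1225 bp at E12.5. The enterocyte libraries did not overlap any of the others, but the share of all windows that separate this way was not counted. Each of the other groups had 1 library with a single peak and 1 with none. The group means were 9.61 ± 1.13 kb in enterocytes, 0.120 ± 0.170 kb in ISC, 0.175 ± 0.247 kb in the E14.5 libraries and 0.613 ± 0.866 kb in those of E12.5 (mean ± SD, n = 2 each).

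The genome was divided into windows of the length of the locus, covered length was scaled to each library's total, and limma tested the change on a log2 scale across the 14171 windows in which 2 or more libraries had a peak. Covered length at Lct was higher in enterocytes than in ISC (adjusted p = 0.00112, limma), where 15.0% of all windows were called higher. Without the scaling, 521 windows were called higher and 5221 lower in this comparison, against 2120 and 3969 with it, and Lct was called higher by both. It was also higher than at E14.5 (adjusted p = 0.000732, against 19.6% of windows) and than at E12.5 (adjusted p = 0.000969, against 22.6%). Without the scaling, 1076 windows were called higher and 6889 lower than at E14.5 (2776 and 5764 with it), and 1953 higher and 6439 lower than at E12.5 (3204 and 6207 with it). The 3 comparisons share the enterocyte libraries. The rise from ISC ranked at percentile 99.97 among the changes of all windows. Both enterocyte libraries lay above both libraries of each other group.

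Among ISC, E14.5 and E12.5 no difference at Lct passed the test. The adjusted p was 0.924 for ISC against E14.5 (17.8% of windows called higher and 24.9% lower), 0.365 for ISC against E12.5 (25.0% higher, 32.9% lower) and 0.553 for E14.5 against E12.5 (15.1% higher, 14.2% lower; limma). Without E12.5 replicate 1, which had no peak in the window, Lct was lower in ISC than at E12.5 (adjusted p = 0.0253), a fit in which the lone E12.5 library is assumed to vary like those of the other groups. Without the scaling, 1682 windows were called higher and 2476 lower in ISC than at E14.5 (2518 and 3533 with it), 3333 higher and 3086 lower in ISC than at E12.5 (3549 and 4659 with it), and 1447 higher and 962 lower at E14.5 than at E12.5 (2134 and 2014 with it). A library without a called peak may hold acetylation below the threshold of the peak caller. A smaller share of cells with the mark and less of the mark per cell cannot be told apart in sorted populations.

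**Figure D1:**
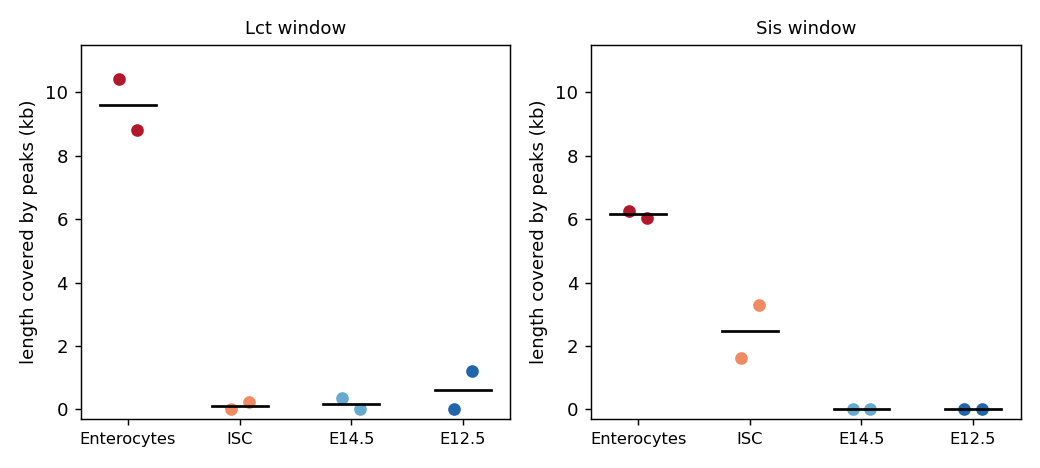
Length covered by H3K27ac peaks (kb) in the Lct window and the Sis window, by group; each point is 1 library and each line the mean of 2. At Lct the enterocyte libraries stand alone at 10.41 and 8.806 kb, and at Sis the ISC libraries (1.633 and 3.288 kb) lie between enterocytes (6.244 and 6.048 kb) and the embryonic libraries at 0.

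At Sis both ISC libraries carried peaks as well. Peaks covered 6244 and 6048 bp in the enterocyte libraries, against 1633 and 3288 bp in ISC and none in either library at E14.5 or E12.5. The 3 levels did not overlap, but the share of all windows with such a separation was not counted. The group means were 6.15 ± 0.139 kb in enterocytes and 2.46 ± 1.17 kb in ISC (mean ± SD, n = 2 each).

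Covered length at Sis was higher in enterocytes than in ISC (adjusted p = 0.000242, limma over 10777 windows of 130 kb, of which 15.8% were called higher; 340 higher and 4083 lower without the scaling, against 1706 and 3063 with it), with both enterocyte libraries above both ISC libraries. The rise ranked at percentile 98.1 of all windows. Enterocytes were also higher than E14.5 (adjusted p = 9.48e-06, against 20.3% of windows) and than E12.5 (adjusted p = 5.47e-06, against 23.5%). Without the scaling, 761 windows were called higher and 5393 lower than at E14.5 (2186 and 4538 with it), and 1421 higher and 5078 lower than at E12.5 (2536 and 4921 with it). No embryonic library had a peak at Sis, so the embryonic groups added no spread to the fit. The standard error of the log2 change was 0.155 at Sis, against 0.547 at Lct. ISC in turn were higher than E14.5 (adjusted p = 0.000124, against 18.3% of windows) and than E12.5 (adjusted p = 5.39e-05, against 24.9%), again in both libraries. Without the scaling both calls held, while 1214 windows were called higher and 1922 lower in ISC than at E14.5 (1975 and 2877 with it), and 2513 higher and 2416 lower than at E12.5 (2680 and 3675 with it). With only peaks of −log10 q of at least 10, the rise of ISC over the embryonic groups no longer passed (adjusted p = 0.266 over E14.5 and 0.217 over E12.5). The ISC peaks at Sis were weak: of the 8, 2 had a −log10 q above 10, both in replicate 2. The difference in ISC between the genes, with peaks in both libraries at Sis and in 1 of 2 at Lct, was not tested.

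**Figure D2:**
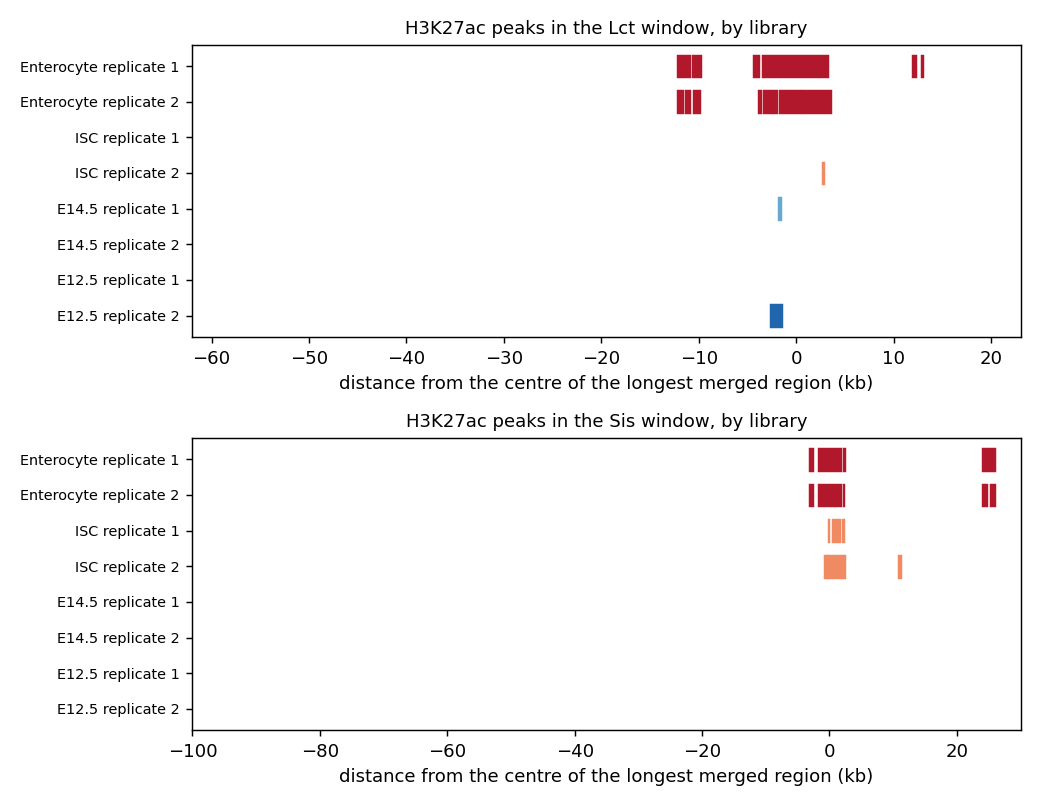
H3K27ac peaks (bars) in the Lct window of 85 kb and the Sis window of 130 kb, 1 row per library; the x axis is the distance in kb from the centre of the longest merged region. Peaks lie in a few short groups, and the E14.5 and E12.5 rows are empty at Sis.

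Peaks of the 8 libraries were merged where they overlapped or touched, which gave 6 regions at Lct and 6 at Sis. No region at either locus was present in all 8 libraries, and 15.5% of the 79482 regions of the genome were. With 6 regions at each locus, this is not read as a departure from that share. At Sis it follows from the embryonic libraries, which had no peak in the window. At Lct 3 regions and at Sis 3 regions were present in both enterocyte libraries and in no other library, a pattern shown by 3.46% of all regions.

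The main Lct region spanned chr1:130218432-130225505 and held all peaks of the other groups. It was covered over 6831 and 6565 bp in enterocytes, against 0 and 240 bp in ISC, 350 and 0 bp at E14.5 and 0 and 1225 bp at E12.5. In enterocyte replicate 1 it was a single peak of 6831 bp, longer than 99.4% of the peaks of that list, with a fold enrichment over local background of 12.45 and a −log10 q of 50.99, at percentile 85.5 of the list. In enterocyte replicate 2 the same stretch was split into 3 peaks of 1378, 2131 and 3056 bp. The strongest of these had a fold enrichment of 11.4 and a −log10 q of 55.5, at percentile 82.0 of its list. These scores are the authors' and are read here within each list.

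Summits at Lct fell at several places in the main region. Enterocyte replicate 1 had its summit at 130221706, and replicate 2 had one 40 bp away, at 130221746. The highest pileup of replicate 2 lay elsewhere, at 130224500. The E12.5 peak had its summit at 130219441, which is 1 bp from a second summit of enterocyte replicate 2 at 130219442. The E14.5 summit was at 130220288 and the ISC summit at 130224771. The E12.5 peak had a fold enrichment of 4.10, the E14.5 peak 3.66 and the ISC peak 3.14. Of the 1225 bp at E12.5, 80.3% lay under peaks of both enterocyte libraries, which is 11.8% of the 8317 bp that those libraries shared.

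The other Lct regions were present in enterocytes alone. Regions at chr1:130209713-130211081 and chr1:130211252-130212247 had 1300 and 1221 bp, and 996 and 749 bp, in enterocyte replicates 1 and 2. A shorter one at chr1:130217540-130218319 had 603 and 271 bp. Regions at chr1:130233894-130234308 and chr1:130234740-130235004, with 415 and 265 bp, were called in enterocyte replicate 1 only.

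At Sis the main region spanned chr3:72768205-72771817. It was covered over 3541 and 3570 bp in enterocytes, against 1350 and 2537 bp in ISC, and had no peak in the embryonic libraries. In both enterocyte libraries it was 1 peak, longer than 96.0% and 96.2% of the peaks of its list. The fold enrichment of that peak was 12.1 in replicate 1 and 8.25 in replicate 2, and its −log10 q was at percentiles 83.6 and 67.01. In ISC replicate 1 the stretch held 3 peaks of 208, 606 and 536 bp, with a highest fold enrichment of 4.35 at percentile 35.8 by −log10 q. ISC replicate 2 had 2 peaks of 517 and 2020 bp, and the longer had a fold enrichment of 5.20 at percentile 47.8 by −log10 q.

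The ISC peaks lay largely inside the enterocyte domain. Of the covered length at Sis, 95.3% in ISC replicate 1 and 82.7% in ISC replicate 2 was under peaks of both enterocyte libraries. This was 26.4% and 46.1% of the 5891 bp shared by the enterocyte libraries. Within the main region the ISC peaks lay towards its right end: the leftmost ISC peak started at 72769762 in replicate 1 and at 72769215 in replicate 2, while the enterocyte peaks started at 72768219 and 72768205. Of the 5 ISC summits in the main region, 3 lay close to an enterocyte summit. Enterocyte replicate 1 had its summit at 72770672, which is 40 bp from one of ISC replicate 1 at 72770632. Enterocyte replicate 2 had its summit at 72771580, which is 28 bp from a summit of ISC replicate 1 and 39 bp from one of ISC replicate 2. The other 2 ISC summits, at 72769848 in replicate 1 and 72769559 in replicate 2, lay 824 and 1113 bp from the nearest enterocyte summit. The summits of the 2 enterocyte libraries were themselves 908 bp apart.

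A gap without peak followed the main Sis region at the same place in all 4 adult libraries. It was 328 and 305 bp long in enterocytes, against 274 and 175 bp in ISC. Beyond it a short region at chr3:72771993-72772415 was covered over 328 and 247 bp in enterocytes, against 283 and 384 bp in ISC. The covered lengths of the adult groups overlapped in this region, and the embryonic libraries had no peak in it.

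**Figure D3:**
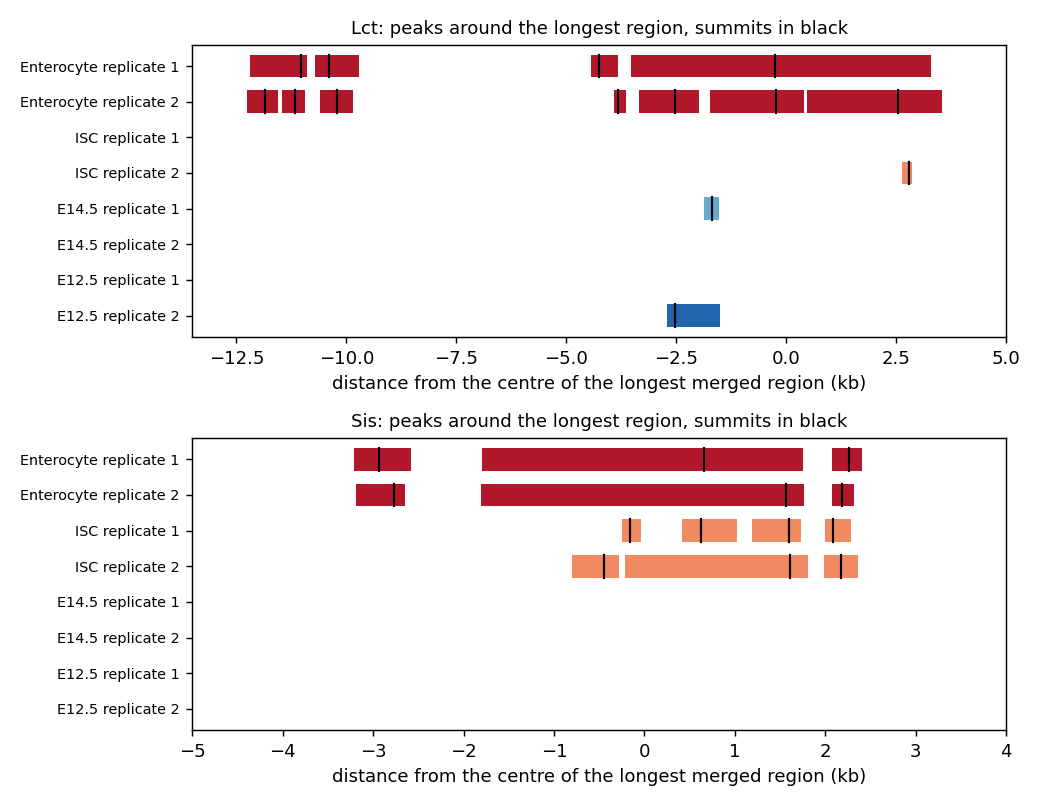
Peaks (bars) and their summits (black lines) around the longest merged region of Lct and of Sis, 1 row per library; the x axis is the distance in kb from the centre of that region. The 240 to 1225 bp peaks of ISC, E14.5 and E12.5 at Lct lie inside the enterocyte domain, and at Sis the ISC peaks occupy its right part, followed by a gap in all 4 adult libraries.

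The remaining Sis regions were called in 1 adult group alone. A region at chr3:72766794-72767423 had 630 and 538 bp in enterocytes and no peak in the other 6 libraries. Further right, after a stretch of 21552 and 21678 bp without peaks in the enterocyte libraries, a pair of regions at chr3:72793968-72794904 and chr3:72795126-72796053 had 937 and 805 bp, and 808 and 888 bp. The summits of the second lay at 72795359 and 72795378, 19 bp apart. The region at chr3:72780814-72781180 was covered over 367 bp in ISC replicate 2 and had no peak in any other library.

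Covered length was also ranked within each library. The Lct window ranked at percentiles 93.0 and 91.1 by covered length among the windows of the enterocyte libraries, against 12.6 and 19.5 in ISC, 15.5 and 7.04 at E14.5 and 8.77 and 31.0 at E12.5. The Sis window ranked at percentiles 80.2 and 79.9 in enterocytes, against 43.6 and 49.5 in ISC and 4.76 to 7.12 in the embryonic libraries.

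The windows beside Lct were lower in enterocytes than in the embryonic groups, the opposite of the Lct window. In the 85 kb before it (from chr1:130075001), peaks covered 1353 and 1432 bp in enterocytes, against 2699 and 3638 bp in ISC, 4355 and 4233 bp at E14.5 and 3412 and 3658 bp at E12.5. In the 85 kb after it (chr1:130245001-130330000), they covered 1201 and 2034 bp in enterocytes, against 4351 and 5116 bp in ISC, 7314 and 6047 bp at E14.5 and 5409 and 5624 bp at E12.5. Enterocytes were lowest in both, without overlap, though the share of all windows that separate this way was not counted. Lower covered length in enterocytes was common: 40.7% of all windows were called lower than at E14.5 and 43.8% lower than at E12.5. Against E14.5 and E12.5, the change in the window before ranked at percentiles 34.2 and 37.8 among all windows. The change in the window after ranked at percentiles 24.3 and 27.5. In RefSeq gene order Lct lies between Ubxn4 and Mcm6, which encodes a subunit of the helicase that opens DNA for replication, but no peak was assigned to either gene.

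The decrease in enterocytes passed the test against the embryonic groups on both sides. In the window before, the adjusted p was 0.00300 against E14.5 and 0.00285 against E12.5, and in the window after it was 0.00484 and 0.00432 (limma; 40.7% of windows were called lower than at E14.5 and 43.8% lower than at E12.5). Against ISC it did not pass in the window before (adjusted p = 0.0660, where 28.0% of windows were called lower), but did without the scaling (adjusted p = 0.00844), with equal peak numbers (adjusted p = 0.0429) and without E12.5 replicate 1 or 2 (adjusted p = 0.0412 and 0.0403). It passed narrowly in the window after (adjusted p = 0.0438), and that call was lost with 100 bp added in place of 500 (adjusted p = 0.0547), under the replicate block (adjusted p = 0.0685) and in 7 of the 8 fits that left out a library, all but that without enterocyte replicate 2 (up to adjusted p = 0.183, without ISC replicate 1). These windows were chosen after seeing the data.

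The surroundings of Sis were empty on one side. The window before it had no peak in any library. In the window after it (chr3:72800001-72930000), peaks covered 3105 and 1785 bp in enterocytes, against 2035 and 2739 bp in ISC, 744 and 818 bp at E14.5 and no peak at E12.5. Enterocytes and ISC overlapped there, and their difference did not pass the test (adjusted p = 0.0977, limma; 15.8% of windows were called higher). Enterocytes were higher than E14.5 (adjusted p = 0.00116, against 20.3% of windows called higher) and than E12.5 (adjusted p = 7.42e-05, against 23.5%), in both libraries.

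The closest of these regions, chr3:72800193-72802078, began 0.193 kb outside the Sis window. It was covered over 1635 and 1471 bp in enterocytes, against 1072 and 1041 bp in ISC, 744 and 818 bp at E14.5 and no peak at E12.5. It was the region closest to Sis that had a peak in both E14.5 libraries. Within the Sis window neither E14.5 nor E12.5 had a peak, so the test could show no difference there (15.3% of all windows were called higher and 15.5% lower). With the window extended by 20 kb on each side, which takes in that region, E14.5 was higher than E12.5 (adjusted p = 0.00178, limma, against 15.6% of the 8934 windows so extended). Without the extension and the scaling, 987 windows were called higher and 673 lower at E14.5 than at E12.5 (1653 and 1669 with the scaling).

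**Figure D4:**
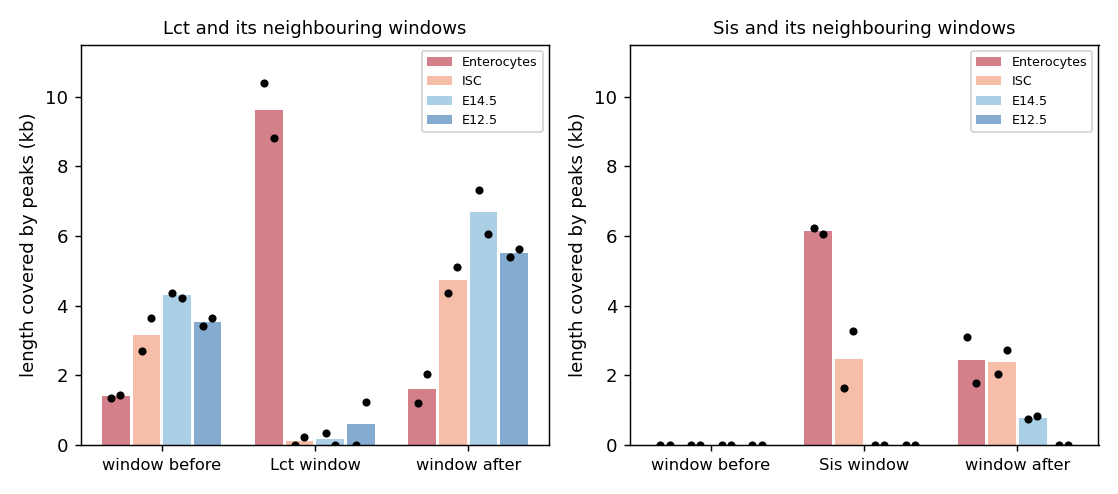
Length covered by H3K27ac peaks (kb) in the Lct and Sis windows and in the neighbouring windows of equal length; bars are means of 2 libraries and points are libraries. At Lct the neighbours are lowest in enterocytes (1.201 to 2.034 kb) while the Lct window is highest, and at Sis the window before is at 0 in all 8 libraries.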

How the data were processed

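H3K27ac ChIP-seq peak lists of 8 libraries were used; the 8 inputs enter through the peak calls. The build was mm9 and the tools were Bowtie 1.1.2, SAMtools 1.2, bcl2fastq 1.8.4 and MACS2, per the submitters' processing notes. Per the file headers, MACS 2.1.0.20140616 called narrow peaks for each library against its input at a q-value of 0.05, with 51 bp tags and 1 tag per position. Per the file headers, the deposited lists give the pileup signal at the summit, −log10 p and −log10 q values, and a fold enrichment ratio. Read counts were not analysed here, so precision rests on 2 libraries per group.

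Covered length per window was scaled to the mean total over libraries. Windows in which 2 or more libraries had a peak were tested as log2(covered bp + 500) with limma 3.58.1 in R 4.3.3 (4 group means, eBayes with trend and robust, 4 residual degrees of freedom, Benjamini-Hochberg adjusted p under 0.05). Scaling matters for this measure because total peak length differed between libraries. The fit was tested on simulated data in which every library had covered length in every window. Windows with some libraries lacking a peak, as at Lct and Sis, were not simulated. All merged regions are reported. The members, windows and lists were chosen with earlier results of these data known. Mgam, Treh, sugar carriers and cell type markers were not located, since the gene table is on GRCm38.p6 and coordinates were not converted.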

Additional observations from a re-analysis of the deposited data

How the results depend on the processing

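The rises at Lct in enterocytes over the 3 other groups and at Sis in enterocytes over the 3 others kept their direction and passed under all 16 alternatives, with adjusted p (limma) of at most 0.0158. Without scaling, the median log2 change of all windows of 85 kb from ISC to enterocytes moved to −0.52, against −0.03 with it. With the window extended by 20 kb on each side, Lct with its surroundings was lower in ISC than at E12.5 (adjusted p = 0.0390, limma). In that fit 3758 of 11034 windows were called lower. The extension takes in chr1:130253530-130257419, present in all 8 libraries, with 3116 and 3519 bp in ISC and 3311 and 3687 bp at E12.5. It also takes in part of chr1:130137872-130142363, likewise present in all 8 libraries. That whole region had 2699 and 3638 bp in ISC and 3412 and 3658 bp at E12.5. These lengths are before scaling, while the fit used scaled lengths. Sis with its surroundings was higher at E14.5 than at E12.5 (adjusted p = 0.00178, limma). With peaks of −log10 q of at least 10, the rise at Sis in ISC no longer passed (adjusted p = 0.266 over E14.5, 0.217 over E12.5), and 3 merged regions were left at Lct and 3 at Sis. With a library left out, the adjusted p at Lct ran from 0.729 to 0.980 for ISC against E14.5, from 0.0253 to 0.665 for ISC against E12.5 and from 0.0696 to 0.939 for E14.5 against E12.5, and the direction turned in 4 of these fits: without ISC replicate 1 or E14.5 replicate 1 in the first, and without E12.5 replicate 2 in the others. Merging within 1 kb gave 3 regions at Lct and 3 at Sis, with 1 at each in enterocytes alone. With a library left out, 3 to 5 Lct regions were in enterocytes alone, 5 without enterocyte replicate 2. When an enterocyte library is left out, a peak in the remaining one is enough. The count of 5 therefore includes the regions called in enterocyte replicate 1 only. Beside Sis, enterocytes passed as higher than ISC with equal peak numbers (adjusted p = 0.0298) and without enterocyte replicate 2 (adjusted p = 0.00895). With the replicate number as a block, called rises at the loci kept adjusted p between 3.87e-05 and 0.00256; the numbers pair no samples in the labels, and replicate differences of the groups correlated between −0.18 and 0.21. The cause of these shifts was not tested.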
